A study of Mus musculus with 9 samples.

Results

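The 32 genes described here are p53 target genes, chosen by symbol from the table of 56748 gene identifiers, together with Trp53 itself and its inhibitor Mdm4. All 32 were found and all 32 were among the 19486 genes tested. Differences between the genotypes in these libraries were known when the list was put together, so the members' differences from wild type are given as a description and support nothing on their own. The genes were set apart by role: 8 act in arrest and growth restraint, 3 are p53 and its feedback regulators, 13 act in apoptosis, 5 in DNA repair and nucleotide supply, and 3 encode proteins of the mitotic spindle and the dividing cell.

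p53, the product of Trp53, is a transcription factor that is kept low by the ubiquitin ligase Mdm2 and is stabilised when DNA is damaged or growth signals are out of balance. It binds paired copies of a short sequence, the half-site, and raises the transcription of genes that halt the cell cycle, start apoptosis or repair DNA, as well as Mdm2, which limits it again. Its main arrest target, the cyclin-dependent kinase inhibitor p21, encoded by Cdkn1a, acts through the DREAM complex to silence genes of cell division, many of which carry a CCAAT box and a cell cycle homology region near their start.

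RNA was measured by total RNA sequencing in cells sorted from mouse lung as negative for DAPI and CD45 and positive for CD31, an endothelial surface protein. The mice were of strain C57BL/6 and 6 weeks old, with 3 libraries for each of the genotypes WT, DNMAML and Notch1f/f. DNMAML names a dominant-negative Mastermind-like protein, a general blocker of transcription by Notch receptors, and Notch1f/f a conditional allele of the receptor gene Notch1. The sources used here do not give the Cre line or other driver, the cells it acts in or the time of recombination. They also do not say whether replicates are different animals, so p-values measure the spread between libraries, which may be technical.

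The libraries held between 15522100 and 27842496 counts. Levels are given as CPM, the count of a gene scaled to library size, and libraries are named by genotype and number (WT 1). The endothelial genes Cdh5 and Pecam1 ran from 5359 to 6647 CPM and from 3404 to 4347 CPM over the 9 libraries. Notch1 had between 678 and 908 CPM in the WT and DNMAML libraries, and 70.8, 29.5 and 176 CPM in Notch1f/f 1, 2 and 3, a log2 difference from WT of -3.17 (SE 0.59, edgeR, Benjamini-Hochberg adjusted p = 0.0634). Y-linked genes were expressed in WT 2, DNMAML 1, DNMAML 3 and Notch1f/f 1. Summed CPM of 22 leukocyte markers ran from 126 to 834 in WT, 389 to 723 in DNMAML and 160 to 349 in Notch1f/f. For 13 epithelial and mesothelial markers the sums ran from 439 to 3373, 244 to 1731 and 174 to 1207, and for 14 mural and fibroblast markers from 686 to 1314, 417 to 1245 and 208 to 486. None of these markers was at 0 in every library. In bulk samples fewer cells of a type and less RNA per cell cannot be told apart.

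Promoter windows of 24 of the 32 genes, from 250 bases before to 50 bases after the start site, were found in RefSeq on build GRCm38.p6, without Zmat3, Trp53inp1, Pmaip1, Tnfrsf10b, Perp, Rrm2b, Xpc and Ddb2. The p53 half-site was present without mismatch, on either strand, in 11 of the 24 genes, and in 9.55% of all 27025 genes with a window. Cdkn1a alone among them held a full site, with a pair of half-sites separated by at most 13 bases, an arrangement present in 20 of the 27025 genes. Cdkn1a and Ccng1 are shown for arrest, Mdm2 for feedback and Bax, a pore-forming protein of apoptosis, for cell death. Each sequence is written on the strand of the gene, and capitals mark the half-site or, in Cdkn1a, the full site with its spacer.
Cdkn1a, chr17:29090889-29090954, plus strand: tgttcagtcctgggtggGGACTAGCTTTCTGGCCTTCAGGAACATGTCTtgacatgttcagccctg
Ccng1, chr11:40755447-40755486, minus strand: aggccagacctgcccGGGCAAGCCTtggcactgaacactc
Mdm2, chr10:117710920-117710959, minus strand: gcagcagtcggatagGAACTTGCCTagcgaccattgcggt
Bax, chr7:45467075-45467114, minus strand: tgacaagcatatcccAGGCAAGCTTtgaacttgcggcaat
The full site of Cdkn1a lay from 73 to 42 bases before the start of the window printed, which belongs to the start site furthest upstream. The window of a start site further downstream, chr17:29093519-29093818, held 0 half-sites and 0 full sites. The half-site lay from 185 to 176 bases before the start in Ccng1, 186 to 177 in Mdm2 and 201 to 192 in Bax. The bases directly after the capitals of Cdkn1a, tgacatgttc, come near the half-site but hold a mismatch, so they were not marked. The stretch in capitals is thus the full site by the rule without mismatch only. A match is a description of the letters in this window, not a measured binding site.

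**Figure D1:**
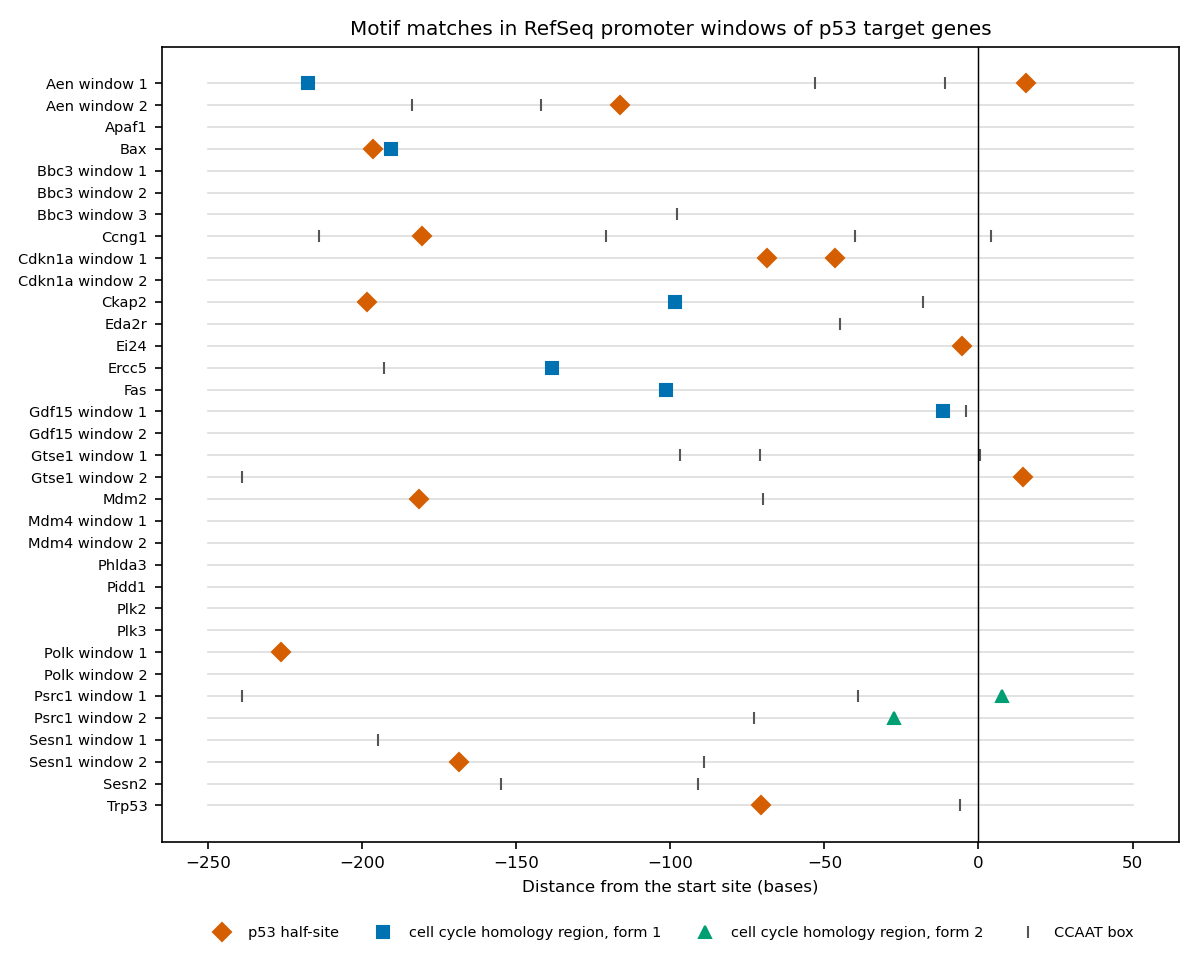
Motif matches in the RefSeq promoter windows of 24 p53 target genes, by distance from the start site in bases; each line is 1 window, and genes with several start sites have several. Diamonds are p53 half-sites, squares TTTGAA and triangles TTCGAA (the 2 forms of the cell cycle homology region searched), and ticks CCAAT boxes. Half-sites are present in 11 genes, and all 3 mitotic genes hold a CCAAT box.

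Per kilobase of exon, levels in WT spanned from 0.0893 to 138 CPM. Plk2, a polo-like kinase gene, was highest at 138 CPM per kilobase, followed by the death receptor gene Fas at 53.8 and Cdkn1a at 25.1. Cdkn1a and the fourth, Phlda3 at 24.6 CPM per kilobase, which encodes an inhibitor of AKT signalling, did not differ beyond the spread of the libraries. The mitotic genes Gtse1, Ckap2 and Psrc1 were the lowest, at 0.304, 0.15 and 0.0893 CPM per kilobase. In both DNMAML and Notch1f/f the means on the same scale had Cdkn1a in second place behind Plk2, at 46.3 and 55.9 CPM per kilobase. Fas followed at 44.0 and 42.4 CPM per kilobase, and the order of Cdkn1a and Fas was not the same in every library of either genotype.

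**Figure D2:**
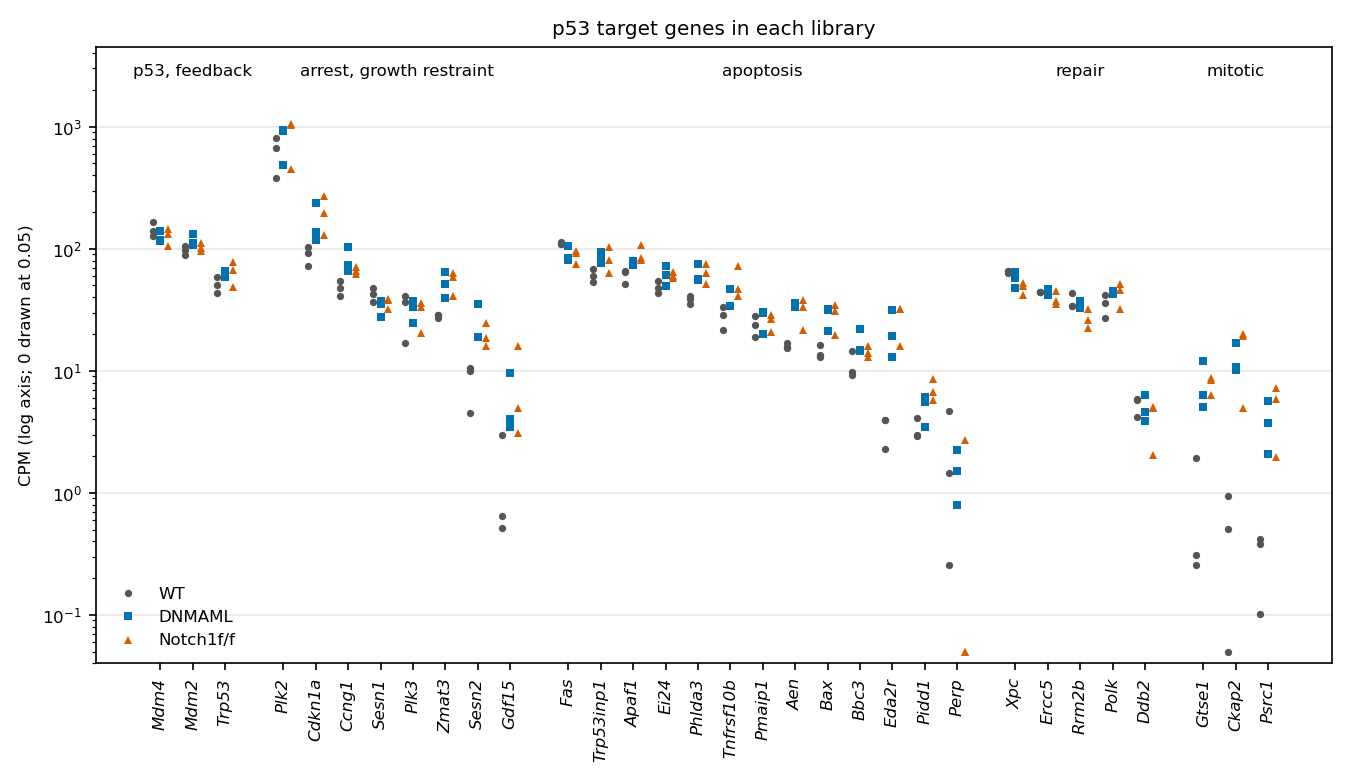
Level of each of the 32 p53 target genes in each of the 9 libraries, in CPM on a log axis, with 0 drawn at 0.05; genes are grouped by role, and circles, squares and triangles are WT, DNMAML and Notch1f/f libraries. Eda2r, Ckap2, Gtse1 and Psrc1 are low in all 3 WT libraries and higher in each of the other 6, while repair genes lie close together.

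Both groups were compared with the same 3 WT libraries, so the values of the pair of comparisons are set side by side and their likeness is not read as repetition. In DNMAML against WT, 24 of the 32 genes were higher and 8 lower, with a median log2 difference of 0.40, beside 0.01 over all 19486 genes. The edgeR quasi-likelihood test with Benjamini-Hochberg adjustment over all genes called 0 of the 32, where it called 0.00513% of all genes. At an unadjusted p below 0.05, 16 of the 32 passed, all of them higher, beside 724 higher and 440 lower of all 19486 genes. The groups did not overlap in 19 members. Of these, 18 were higher in every DNMAML library than in any WT library, as were 7.58% of all genes, and 1, Fas, was lower, as were 6.84%. DESeq2 called 9 members, all higher, beside 0.884% of all genes called higher.

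WT and DNMAML libraries of the same number deviated together to a degree (r from 0.179 to 0.344), although the labels do not state that numbers pair libraries. These r come from the same data, so adjusted p values with the number as a block are given as a description. Each same-numbered pair held a library with and a library without Y-linked expression. With the number as a block in these 6 libraries, edgeR called 9 members higher (Phlda3, Eda2r, Zmat3, Psrc1, Sesn2, Trp53inp1, Aen, Ckap2 and Ccng1) and 0 lower, beside 1.17% of all genes called higher. Their Benjamini-Hochberg adjusted p values ran from 0.00528 for Aen to 0.0272 for Eda2r. In the 6 libraries without the block 2 members were called higher, Eda2r and Aen, beside 0.359% of all genes. The calls in DNMAML therefore depend on the fit, and 0 hold in the fit to all 9 libraries.

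In Notch1f/f against WT, 23 of the 32 genes were higher and 9 lower, with a median log2 difference of 0.45, beside 0.02 over all genes. The edgeR test called 3 members, all higher: Eda2r, Psrc1 and Ckap2. It called 0.836% of all genes in either direction and 0.513% higher. Psrc1 and Ckap2 passed the filter on counts only through DNMAML and Notch1f/f, as given below. At an unadjusted p below 0.05, 16 members were higher and 3 lower, beside 1326 higher and 1295 lower of all 19486 genes. Counts at this p for the roles and lists below stand beside these totals over all genes. The groups did not overlap in 16 members that were higher, as in 8.49% of all genes, and in 3 that were lower (Fas, Rrm2b and Xpc), as in 9.33%. DESeq2 called 13 members higher and 0 lower, beside 2.57% of all genes called higher. Calls in the edgeR test numbered 0 without WT 1 and 0 without WT 2, 1 without Notch1f/f 2, 5 without DNMAML 2 and 6 without Notch1f/f 1 or Notch1f/f 3.

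Between Notch1f/f and DNMAML the edgeR test called 0 of the 32, beside 0.0205% of all genes. By edgeR 0 members had an unadjusted p below 0.05, beside 1242 of all 19486 genes. DESeq2 called 0, and the lowest adjusted p in edgeR was 0.813, for Rrm2b. The median log2 difference was 0.004. Apaf1 was higher in every Notch1f/f library than in any DNMAML library, as were 4.4% of all genes, and Rrm2b lower, as were 5.33%. The largest differences were those of Perp (-0.79, SE 1.60), Gdf15 (0.49, SE 0.76), Pidd1 (0.48, SE 0.37) and Tnfrsf10b (0.48, SE 0.24). The errors of Perp and Gdf15 exceed their differences, so the genotypes are not shown to be alike in these genes.

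**Figure D3:**
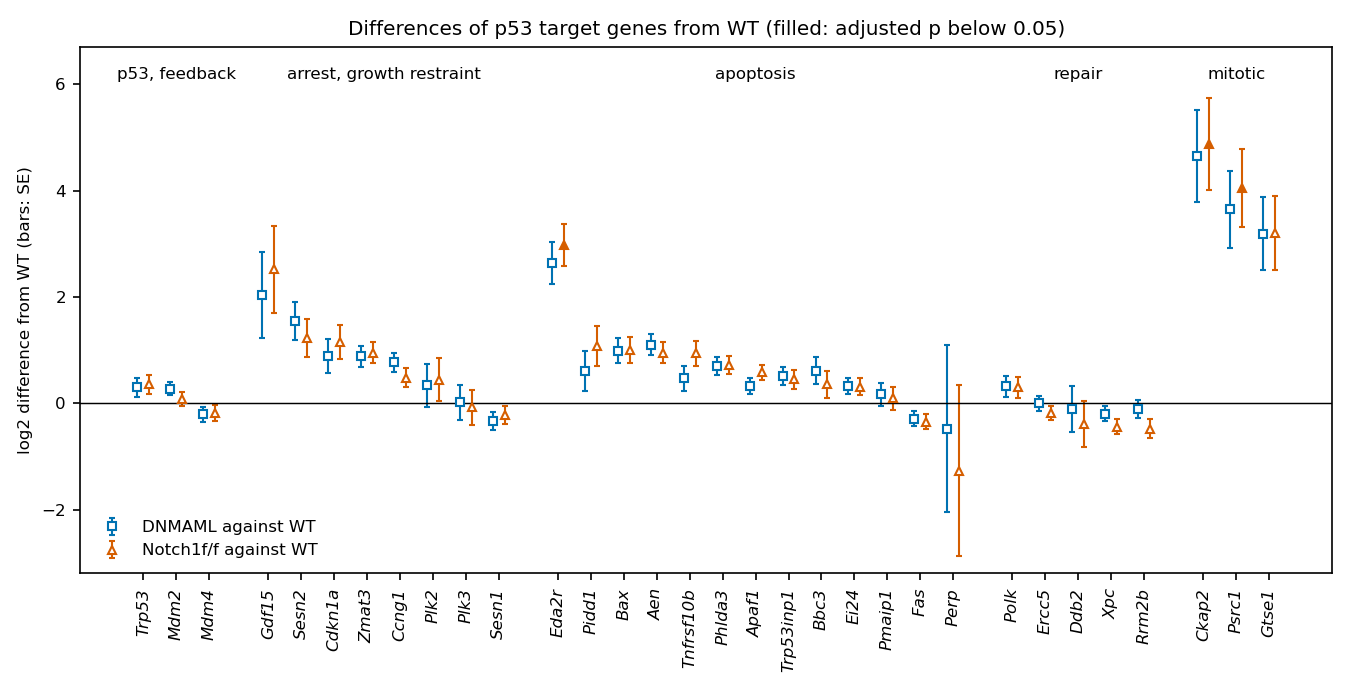
Log2 difference from WT of each p53 target gene in DNMAML (squares) and Notch1f/f (triangles), with bars of 1 SE from the edgeR fit to all 9 libraries; genes are ordered within roles, and filled symbols mark an adjusted p below 0.05. The 3 filled symbols are Ckap2, Psrc1 and Eda2r in Notch1f/f, and the repair genes lie at or below 0 with the exception of Polk.

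p53 itself and its feedback regulators differed little. Trp53 (ENSMUSG00000059552, chromosome 11, 69471185 to 69482699, GRCm39) had 43.3, 50.1 and 58.4 CPM in WT, 63.7, 58.2 and 65.1 CPM in DNMAML, and 48.8, 78.2 and 67.6 CPM in Notch1f/f. The ranges overlapped in both comparisons, with log2 differences of 0.30 (SE 0.17) and 0.36 (SE 0.17). Mdm2, whose promoter half-site is shown above, had 98.0, 88.6 and 105 CPM in WT, 133, 108 and 112 CPM in DNMAML, and 101, 111 and 96.0 CPM in Notch1f/f. Each DNMAML library was above each WT library, although DNMAML 2 and WT 3 were close, while Notch1f/f overlapped with WT. The log2 differences of Mdm2 were 0.27 (SE 0.12) and 0.08 (SE 0.12), with Benjamini-Hochberg adjusted p values of 0.831 and 0.876 in the edgeR test. Mdm4, a relative of Mdm2 that masks the activation domain of p53, had 141, 164 and 127 CPM in WT, 116, 139 and 119 CPM in DNMAML, and 145, 132 and 104 CPM in Notch1f/f. Its groups overlapped, with log2 differences of -0.21 (SE 0.15) and -0.18 (SE 0.15).

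Of the 8 arrest and growth restraint genes, 7 were higher in DNMAML and 6 in Notch1f/f, with median log2 differences of 0.83 and 0.72. The edgeR test called 0 of them in either comparison, with 5 at an unadjusted p below 0.05 in each, while DESeq2 called 3 and 4 higher. In 5 of them every DNMAML library, and in 5 every Notch1f/f library, lay above the WT range. Cdkn1a (ENSMUSG00000023067, chromosome 17, 29309950 to 29319701, GRCm39), which encodes p21, had 92.8, 71.9 and 102 CPM in WT, 238, 119 and 137 CPM in DNMAML, and 197, 268 and 130 CPM in Notch1f/f. Each library of the other genotypes was above every WT library, and DNMAML 1 and Notch1f/f 2 were the highest. Means of Cdkn1a were 89.0 ± 15.6 CPM in WT, 165 ± 64.5 in DNMAML and 199 ± 69.0 in Notch1f/f (SD, n = 3). The log2 differences from WT were 0.89 (SE 0.32) and 1.16 (SE 0.32), with Benjamini-Hochberg adjusted p values of 0.659 and 0.135 in the edgeR test. About 7.68% of the exon bases of Cdkn1a overlap a gene on the other strand, and strand was not used in counting.

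Sesn2, a sestrin that restrains growth signalling under stress, had 10.6, 4.48 and 9.98 CPM in WT, 35.5, 19.1 and 19.0 CPM in DNMAML, and 18.7, 24.4 and 15.8 CPM in Notch1f/f. All 6 libraries were above the WT range, with log2 differences of 1.55 (SE 0.35) and 1.23 (SE 0.35). It was called in DNMAML with the block in 6 libraries (log2 difference 1.57, SE 0.24, edgeR, Benjamini-Hochberg adjusted p = 0.0109), and had adjusted p values of 0.181 and 0.127 in the fit to 9. Its relative Sesn1 went the other way without passing, at -0.34 (SE 0.17) and -0.23 (SE 0.17), with ranges that overlapped WT in both comparisons. Gdf15, a secreted stress cytokine, had 0.519, 0.640 and 2.95 CPM in WT, 9.53, 3.49 and 4.01 CPM in DNMAML, and 3.08, 15.8 and 4.95 CPM in Notch1f/f. Its groups did not overlap, although WT 3 and Notch1f/f 1 differed by little, and its log2 differences were 2.04 (SE 0.81) and 2.52 (SE 0.82).

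Zmat3, an RNA-binding protein gene, was even across WT at 28.6, 28.4 and 27.3 CPM, and had 64.2, 51.9 and 39.7 CPM in DNMAML and 59.0, 62.8 and 41.0 CPM in Notch1f/f. The third library of both genotypes was the lowest and was still above WT. The log2 differences of Zmat3 were 0.89 (SE 0.20) and 0.95 (SE 0.20), the latter just short of the threshold (edgeR, Benjamini-Hochberg adjusted p = 0.0506). Ccng1, which encodes cyclin G1, had 47.4, 41.2 and 54.1 CPM in WT, 104, 66.1 and 73.2 CPM in DNMAML, and 71.4, 65.9 and 61.8 CPM in Notch1f/f. The genotypes did not overlap with WT, and the log2 differences of Ccng1 were 0.77 (SE 0.17) and 0.48 (SE 0.17).

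The kinase genes Plk2 and Plk3 and the apoptosis gene Pmaip1 differed more between libraries of a genotype than between genotypes. Plk2 had 811, 377 and 669 CPM in WT, 942, 489 and 918 CPM in DNMAML, and 451, 1031 and 1047 CPM in Notch1f/f. Plk3 had 40.9, 16.8 and 36.9 CPM in WT, 37.6, 24.8 and 33.3 CPM in DNMAML, and 20.4, 36.1 and 33.3 CPM in Notch1f/f. Pmaip1, which encodes the BH3-only protein Noxa, had 28.2, 19.1 and 23.8 CPM in WT, 30.2, 19.9 and 29.9 CPM in DNMAML, and 20.7, 26.7 and 28.6 CPM in Notch1f/f. In each of these genes WT 2, DNMAML 2 and Notch1f/f 1 were the lowest of their genotype. The immediate early gene Fos had 318, 344 and 494 CPM in those same libraries and between 1228 and 2004 CPM in the other 6. The part of this difference between libraries in the members' values was not tested, and log2 differences from WT were between -0.08 and 0.45 for the 3 genes, with 0 called. Of a list of 21 immediate early and dissociation stress genes 0 were called by edgeR or DESeq2 in either comparison and 0 had an unadjusted p below 0.05, with medians of -0.23 and -0.31. With the block 2 of them were called lower in DNMAML.

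**Figure D4:**
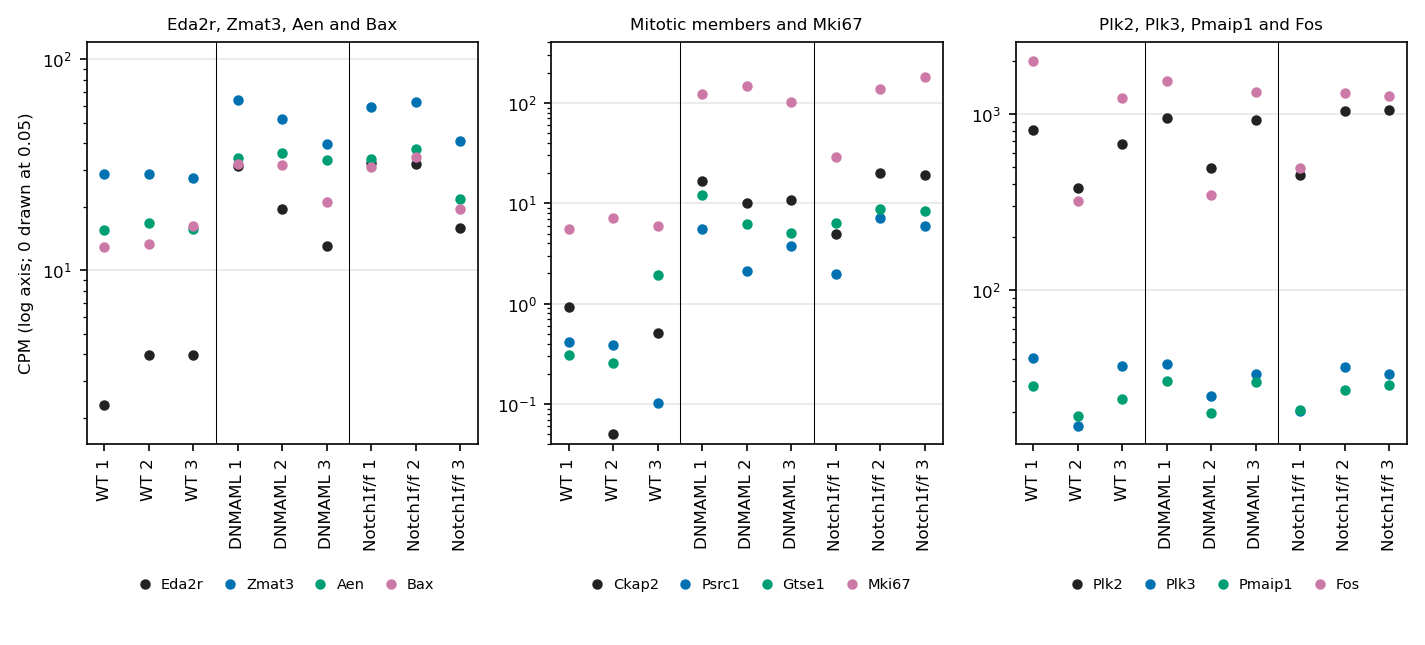
Level in CPM, on log axes with 0 drawn at 0.05, of selected p53 target genes in each of the 9 libraries, with vertical lines between genotypes. Left, Eda2r, Zmat3, Aen and Bax lie above WT in all 6 other libraries; middle, Ckap2, Psrc1 and Gtse1 beside the proliferation marker Mki67; right, Plk2, Plk3 and Pmaip1 beside Fos, which are low in WT 2, DNMAML 2 and Notch1f/f 1.

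Among the 13 apoptosis genes 11 were higher in each comparison, with median log2 differences of 0.51 in DNMAML and 0.58 in Notch1f/f. Eda2r (ENSMUSG00000034457, chromosome X, 96377446 to 96420822, GRCm39), which encodes a receptor for ectodysplasin A2 of the tumour necrosis factor receptor family, had 2.28, 3.97 and 3.97 CPM in WT. It had 31.2, 19.5 and 13.1 CPM in DNMAML and 32.4, 32 and 15.9 CPM in Notch1f/f. Even the lowest of these 6, DNMAML 3, was far above the WT range. Eda2r rose in Notch1f/f by 2.97 on the log2 scale (SE 0.40, a 7.86-fold higher level, n = 3, edgeR, Benjamini-Hochberg adjusted p = 0.0116). In DNMAML its log2 difference was 2.64 (SE 0.39, 6.24-fold) and did not pass (adjusted p = 0.0871), while it was called with the block in 6 libraries (2.57, SE 0.39, adjusted p = 0.0272) and by DESeq2.

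The call of Eda2r in Notch1f/f was lost without WT 1 or WT 2 and with limma-voom, where its log2 difference was between 2.76 and 3.09. Adjusted p values of Eda2r over the settings tried, without the unfiltered fit, ran from 4.45e-11 in DESeq2 to 0.101. Eda2r is X-linked, and the WT library with Y-linked expression, WT 2, had 3.97 CPM beside 31.2, 13.1 and 32.4 CPM in DNMAML 1, DNMAML 3 and Notch1f/f 1. Among libraries without it, WT 1 and WT 3 were at 2.28 and 3.97 CPM of Eda2r, while DNMAML 2, Notch1f/f 2 and Notch1f/f 3 were at 19.5, 32 and 15.9 CPM. The leukocyte gene Ptprc, which encodes CD45, was at 4.98 CPM in WT 1 and 4.95 CPM in Notch1f/f 2, where Eda2r was at 2.28 and 32 CPM. Other leukocyte markers differed between WT 1 and Notch1f/f 2 in both directions. Cd79a was at 0.208 and 3.89 CPM, Il1b at 1.97 and 5.40 CPM, and Laptm5 at 35.7 and 9.91 CPM. The part of leukocytes in the values of Eda2r was not tested.

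Aen, an exonuclease that acts in apoptosis, had 15.5, 16.8 and 15.7 CPM in WT, 34.2, 35.8 and 33.3 CPM in DNMAML, and 33.5, 37.7 and 21.7 CPM in Notch1f/f. DNMAML libraries were close together, and Notch1f/f 3 was the lowest of its genotype and above WT. The log2 differences of Aen were 1.10 (SE 0.20) and 0.95 (SE 0.20), with Benjamini-Hochberg adjusted p values of 0.123 and 0.0502 in the edgeR test. Its log2 difference with the block was 1.10 (SE 0.14, adjusted p = 0.00528) in DNMAML. Bax had 12.9, 13.4 and 16.2 CPM in WT, 31.9, 31.6 and 21.1 CPM in DNMAML, and 30.9, 34.5 and 19.6 CPM in Notch1f/f. The third library of both genotypes again was the lowest and above WT, and the log2 differences were 0.99 (SE 0.24) and 1.00 (SE 0.24).

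Phlda3 had 38.5, 35.5 and 40.8 CPM in WT, between 55.7 and 74.5 CPM in DNMAML and between 50.9 and 74.7 CPM in Notch1f/f, with log2 differences of 0.70 (SE 0.17) and 0.72 (SE 0.17). Tnfrsf10b, a death receptor, and Apaf1, the scaffold of the apoptosome, did not overlap with WT in either genotype. Their log2 differences were 0.47 (SE 0.24) and 0.32 (SE 0.14) in DNMAML, and 0.94 (SE 0.24) and 0.58 (SE 0.14) in Notch1f/f. Bbc3, which encodes Puma, a BH3-only activator of apoptosis, was above WT in each DNMAML library, with 14.5 CPM in the lowest beside 14.4 in WT 3, and overlapped WT in Notch1f/f. Trp53inp1, which encodes a stress protein of the nucleus, did not overlap with WT in DNMAML and did in Notch1f/f, with log2 differences of 0.51 (SE 0.17) and 0.45 (SE 0.17). The remaining apoptosis genes with higher values were Pidd1, Ei24 and Pmaip1, from 0.09 to 1.08 on the log2 scale.

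Fas and Perp were the apoptosis genes with lower values. Fas had 113, 110 and 110 CPM in WT, 81.5, 84.6 and 106 CPM in DNMAML, and 95.1, 74.4 and 92.8 CPM in Notch1f/f. All 6 libraries were below the WT range, with log2 differences of -0.29 (SE 0.14) and -0.34 (SE 0.14) that did not pass. Perp, a membrane protein of epithelial junctions, had 1.45, 0.256 and 4.68 CPM in WT, 1.52, 0.798 and 2.26 CPM in DNMAML, and 0, 0 and 2.7 CPM in Notch1f/f. Replicate 3 was the highest of each genotype, and the groups overlapped. The surfactant gene Sftpc, a marker of the alveolar epithelium, had 702, 169 and 1874 CPM in WT, 580, 67.4 and 828 CPM in DNMAML, and 65.8, 177 and 552 CPM in Notch1f/f, so that it too was highest in the third library of each genotype. Its part in the values of Perp was not tested. The log2 differences of Perp, -0.48 (SE 1.57) and -1.27 (SE 1.61), changed sign without WT 3.

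The 5 repair genes did not share the direction of the arrest and apoptosis genes. Their median log2 differences were -0.10 in DNMAML and -0.39 in Notch1f/f, with 1 higher and 4 lower in each. By edgeR 0 were called, with 0 and 2 at an unadjusted p below 0.05, and DESeq2 called 0. Xpc, which recognises damage in nucleotide excision repair, had 65.3, 65.9 and 63.8 CPM in WT, 64.2, 47.9 and 58.0 CPM in DNMAML, and 49.8, 41.4 and 52.8 CPM in Notch1f/f. All Notch1f/f libraries were below WT and DNMAML overlapped with it, at -0.44 (SE 0.14) and -0.20 (SE 0.14). Rrm2b, a ribonucleotide reductase subunit that supplies nucleotides for repair, had 43.5, 34.1 and 33.8 CPM in WT, 32.4, 33.2 and 37.7 CPM in DNMAML, and 31.8, 22.2 and 26.0 CPM in Notch1f/f. Its Notch1f/f libraries lay below all others, with a log2 difference from WT of -0.48 (SE 0.17, edgeR, Benjamini-Hochberg adjusted p = 0.237), and that from WT in DNMAML was -0.11 (SE 0.17).

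Ddb2, a damage recognition protein, had 4.21, 5.89 and 5.80 CPM in WT, 6.33, 3.89 and 4.56 CPM in DNMAML, and 5.10, 5.00 and 2.03 CPM in Notch1f/f. Its groups overlapped, and its values are uncertain: 23.8% of its exon bases overlap Acp2, a gene on the other strand with 7189 counts beside 911 of Ddb2 over the 9 libraries. Polk, a translesion DNA polymerase, was the repair gene with higher values, at log2 differences of 0.32 (SE 0.20) and 0.30 (SE 0.20). Ercc5, an excision repair nuclease, had between 44.2 and 44.6 CPM in WT and log2 differences of -0.004 (SE 0.14) and -0.18 (SE 0.14). Neither gene passed.

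The 3 mitotic members had the largest differences from WT, with medians of 3.65 in DNMAML and 4.05 in Notch1f/f on the log2 scale. For Gtse1 and Psrc1 the window printed is that of the start furthest upstream. Its bases after the start were not found near the beginning of a transcript of the gene, unlike those of the other window. The other Gtse1 window holds a p53 half-site from 10 to 19 bases after its start, and the other Psrc1 window TTCGAA from 30 to 25 bases before. Promoters of the 3 genes are shown as far as the start site, with CCAAT boxes in capitals on either strand (ATTGG on the strand printed) and, in Ckap2, also the p53 half-site and TTTGAA.
Ckap2, chr8:22185820-22186044, minus strand: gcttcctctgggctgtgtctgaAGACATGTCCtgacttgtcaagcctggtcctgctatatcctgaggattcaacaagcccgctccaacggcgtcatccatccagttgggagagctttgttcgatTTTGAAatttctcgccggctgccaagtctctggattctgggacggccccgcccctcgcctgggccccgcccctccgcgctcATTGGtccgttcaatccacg
Gtse1, chr15:85859587-85859706, plus strand: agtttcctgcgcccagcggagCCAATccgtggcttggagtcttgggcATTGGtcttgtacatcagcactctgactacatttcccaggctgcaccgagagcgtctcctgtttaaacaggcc
Psrc1, chr3:108383684-108383803, plus strand: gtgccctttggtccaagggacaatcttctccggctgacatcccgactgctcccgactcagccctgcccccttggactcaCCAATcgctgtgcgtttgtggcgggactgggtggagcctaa
CCAAT was found in 13 of the 24 genes with a window, all 3 mitotic genes included, and in 41.1% of all genes. TTTGAA was found in 6 (Aen, Bax, Ckap2, Ercc5, Fas and Gdf15) and in 20.2% of all genes, and TTCGAA, which reads the same on both strands, in Psrc1 and in 1.8% of all genes. In Bax the TTTGAA match overlaps the end of the half-site.

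Ckap2 (ENSMUSG00000037725, chromosome 8, 22658176 to 22675835, GRCm39), a microtubule-binding protein of the spindle, had 0.935, 0 and 0.509 CPM in WT, from 18, 0 and 10 counts. It had 16.9, 10.1 and 10.8 CPM in DNMAML and 4.92, 20.1 and 19.3 CPM in Notch1f/f, so that Notch1f/f 1 was the lowest of the 6. Ckap2 rose in Notch1f/f by 4.88 on the log2 scale (SE 0.87, n = 3, edgeR, Benjamini-Hochberg adjusted p = 0.042). Its log2 difference in DNMAML was 4.65 (SE 0.86, adjusted p = 0.169), and 4.81 with the block (SE 0.59, adjusted p = 0.00958). Psrc1 (ENSMUSG00000068744, chromosome 3, 108291155 to 108295547, GRCm39), another microtubule-associated protein of the spindle, had 0.415, 0.384 and 0.102 CPM in WT, from 8, 6 and 2 counts. Its level was 5.61, 2.09 and 3.72 CPM in DNMAML and 1.97, 7.17 and 5.91 CPM in Notch1f/f.

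The lowest library of Psrc1 outside WT, Notch1f/f 1, was well above the highest WT library. Psrc1 rose in Notch1f/f by 4.05 on the log2 scale (SE 0.73, n = 3, edgeR, Benjamini-Hochberg adjusted p = 0.0292), and in DNMAML its difference of 3.65 (SE 0.73) did not pass (adjusted p = 0.159). It passed with the block in edgeR (3.66, SE 0.65, adjusted p = 0.0214), with DESeq2, without a filter and without Notch1f/f 1. Ckap2, Psrc1 and Gtse1 passed the filter on counts only through their levels in DNMAML and Notch1f/f, since their WT counts alone were too low. Their calls therefore add no support to the levels given. The folds of Ckap2 and Psrc1 rest on very few counts in WT. The calls in Notch1f/f were lost for both genes without WT 1, WT 2, WT 3 or Notch1f/f 2, with limma-voom and with the block in 6 libraries. For Ckap2 the call was also lost without DNMAML 1, DNMAML 3 or Notch1f/f 3, in the 6 libraries compared and with the block in 9. Gtse1, which encodes a microtubule-binding protein that also binds p53 in the G2 phase, had 0.312, 0.256 and 1.93 CPM in WT, 12.0, 6.28 and 5.04 CPM in DNMAML, and 6.30, 8.76 and 8.44 CPM in Notch1f/f. The groups did not overlap, and its log2 differences of 3.19 (SE 0.69) and 3.20 (SE 0.69) did not pass, with adjusted p values of 0.172 and 0.056 in the edgeR test. Gtse1 passed in both comparisons with DESeq2 (adjusted p of 0.000129 and 3.5e-05) and without a filter, and by edgeR in Notch1f/f with library totals only (0.049), without WT 3 (0.0154) and without Notch1f/f 1 (0.0468).

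Genes of cell division that p21 and DREAM are known to repress were also higher than in WT, least so in Notch1f/f 1. Their summed CPM ran from 125 to 147 in WT and from 481 to 615 in DNMAML, and was 188, 658 and 756 in Notch1f/f 1, 2 and 3. Every DNMAML library was above WT in 25 of them, and every Notch1f/f library in 21, as in 7.58% and 8.49% of all genes. All 26 genes of that list were higher in both comparisons, with median log2 differences of 2.94 in DNMAML and 2.73 in Notch1f/f. Of the 26, 0 were called in DNMAML, where 25 had an unadjusted p below 0.05 by edgeR and DESeq2 called 19, and 9 rose in Notch1f/f (Ccna2, Ccnb1, Cdk1, Aurkb, Kif23, Mki67, Tpx2, Cenpf and Rrm2), beside 0.513% of all genes called higher. In DNMAML edgeR called 15 in the 6 libraries compared and 21 of 25 tested with the block in them, while in Notch1f/f it called 2 in the 6 libraries compared and DESeq2 called 23. Some of the 26, such as Ccnb1, Cdk1 and Aurkb, also passed the filter on counts only through DNMAML and Notch1f/f. Mki67, the proliferation marker, had 5.5, 7.17 and 5.96 CPM in WT, 122, 146 and 103 CPM in DNMAML, and 29.1, 138 and 183 CPM in Notch1f/f. Notch1f/f 1 was the lowest of its genotype for Mki67 and, as given above, for Ckap2, Psrc1 and Gtse1. Eda2r and Cdkn1a were not lowest there, at 32.4 and 197 CPM. Of 22 leukocyte markers 15 were tested, with medians of 2.24 in DNMAML and 0.95 in Notch1f/f. By edgeR 0 were called, with 6 and 2 at an unadjusted p below 0.05, and DESeq2 called 2 and 1 higher. With the block 3 were called higher in DNMAML. Ptprc had 4.98, 2.94 and 0.407 CPM in WT, 27.9, 26.6 and 1.39 CPM in DNMAML, and 14.4, 4.95 and 1.58 CPM in Notch1f/f. In DNMAML 3 and Notch1f/f 3, where Ptprc was at 1.39 and 1.58 CPM, Ckap2 was at 10.8 and 19.3 CPM. The leukocyte marker Laptm5 was at 5.58 and 18.8 CPM in these libraries. The part of leukocytes in the values of Ckap2 was not tested.

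Among other known p53 targets a single gene was called by edgeR in the 9 libraries. Of 40 such genes 39 were tested, with median log2 differences of 0.14 in DNMAML and 0.06 in Notch1f/f, 24 higher and 15 lower in each. Of these, 0 were called in DNMAML, with 6 at an unadjusted p below 0.05 by edgeR and 0 called by DESeq2, and with the block 1 was called higher and 1 lower. In Notch1f/f DESeq2 called 2 higher and edgeR called 1, Trp53i11, a p53-induced gene, which had 40.4, 25.4 and 31.5 CPM in the WT libraries. All Notch1f/f libraries of Trp53i11 were higher, at 114, 324 and 132 CPM. Trp53i11 rose there by 2.55 on the log2 scale (SE 0.41, edgeR, Benjamini-Hochberg adjusted p = 0.0354), and it had 57.9, 75.8 and 56.1 CPM in DNMAML. Of 25 genes that regulate p53 or signal DNA damage, the kinase genes Atm, Atr, Chek1 and Chek2 among them, 0 were called in either comparison, with medians of -0.02 and 0.01. By edgeR 3 of the 25 had an unadjusted p below 0.05 in each comparison, beside 1164 and 2621 of all 19486 genes. DESeq2 called 0 of them.

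Of 12 genes of the amino acid and unfolded protein stress response, to which Sesn2 and Gdf15 are also known to belong, 0 were called by edgeR, with 2 and 4 at an unadjusted p below 0.05 and medians of 0.06 and -0.04, while DESeq2 called 0 and 1. Among 10 genes of endothelial identity 0 were called, with 0 and 3 at an unadjusted p below 0.05 and medians of 0.01 and -0.01, while DESeq2 called 0 and 1. In Notch1f/f the mural, fibroblast and epithelial markers had lower medians than all genes. There 3 of 14 mural and fibroblast markers fell (Pdgfrb, Cspg4 and Notch3), beside 63 of all 19486 genes called lower, with a median of -1.13. Of the 14, 7 were lower and 1 higher at an unadjusted p below 0.05 by edgeR, and DESeq2 called 6 lower. The 13 epithelial and mesothelial markers had a median of -0.84 with 0 called, 1 at an unadjusted p below 0.05 and 1 called lower by DESeq2. The pericyte marker Rgs5 was higher in every library of both genotypes than in WT. Its log2 differences of 0.89 (SE 0.18) in DNMAML and 0.60 (SE 0.18) in Notch1f/f did not pass in edgeR (adjusted p of 0.169 and 0.144). In DNMAML the medians of these lists were -0.08 and -0.28. The 9 platelet and red cell markers had medians of 0.20 and 0.07, with 0 called by edgeR or DESeq2 and 0 at an unadjusted p below 0.05. The part of these other cells in the members' values was not tested.

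The members of these lists with the largest differences were given by the same rule, with the log2 difference in DNMAML first. The checkpoint kinase gene Chek1 had 1.62 (SE 0.58) and 0.86 (SE 0.58), and Trp63, a p53 relative near the detection limit here, 0.73 (SE 1.75) and -1.52 (SE 1.84). The heat shock genes Hspa1a and Hspa1b, which are near-identical copies and therefore uncertain, had -1.38 (SE 1.03) and -1.34 (SE 1.05) in DNMAML, and -0.65 (SE 1.01) and -0.49 (SE 1.04) in Notch1f/f. Psat1, an enzyme of serine synthesis, had 2.02 (SE 0.67) and 2.79 (SE 0.69), and the cystine transporter gene Slc7a11 1.14 (SE 0.87) and 2.13 (SE 0.89). Of the endothelial genes, Emcn had 0.25 (SE 0.18) and 0.78 (SE 0.18) and Tek -0.42 (SE 0.20) and -0.46 (SE 0.20). The neutrophil receptor gene Csf3r had 4.69 (SE 1.99) and 3.04 (SE 1.92) and the B cell gene Cd79a 3.25 (SE 1.00) and 4.00 (SE 1.02), both from means of 0.213 and 0.137 CPM in WT. Sftpb and Sftpc had -0.83 (SE 1.18) and -0.90 (SE 1.26) in DNMAML, and -1.81 (SE 1.21) and -1.79 (SE 1.29) in Notch1f/f. The platelet genes Pf4 and Gp9 had 1.21 (SE 1.5) and 1.16 (SE 1.47) in DNMAML, and 0.49 (SE 1.49) and 0.48 (SE 1.46) in Notch1f/f. None of these genes passed in the edgeR test in either comparison.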

How the data were processed

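Total RNA libraries with ribosomal RNA depletion, strand-specific and prepared together, were sequenced from 9 sorted samples, per the labels' protocols. The authors deposited 1 table of raw counts per gene, made with featureCounts 2.0.1 on the Ensembl release 107 annotation of GRCm39 with no option for strand, read pairs or multiple mapping, per the file headers. STAR 2.7 and, unlike the header, the build mm10 stand in the submitters' processing notes. Between 76.6% and 89.0% of counts below 200 were even, so many fragments may have been counted by both ends. Symbols came from a GRCm38 annotation, in which 52073 of 56748 identifiers were found. Promoters are RefSeq sequences on GRCm38.p6, with coordinates of that build, while gene coordinates are those of the table.

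Genes were filtered with filterByExpr by genotype, scaled by TMM and tested with the quasi-likelihood test of edgeR 4.0.16 in R 4.3.3, with all 9 libraries and genotype as the only term. A gene was called at a Benjamini-Hochberg adjusted p below 0.05 over 19486 genes. SE is the log2 difference divided by the root of the F statistic. Values per library were given for Trp53, Mdm2, Mdm4, Cdkn1a, each called member and the 3 members of each role with the largest difference and at least 1 CPM; further members were given by level. Of other lists, called members were named, and otherwise the 2 with the largest difference. The members, lists and tests were chosen with earlier results of these data known. The 17 alternatives were DESeq2 1.42.0, limma-voom (limma 3.58.1), 2 other scalings, no filter, 6-library fits, the replicate block and leaving out each library.

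Replicate numbers of the labels were checked for pairing by the correlation of deviations from the group means. For WT with DNMAML, libraries of equal number had r of 0.238, 0.344 and 0.179, and results with the number as a block were given for them. The labels state no pairing, and this use of the block was chosen from the same data. Unlike numbers of WT with DNMAML ran from -0.27 to 0.0774. Deviations from a group mean cancel within the group, so low r of unlike numbers is in part forced by the r of equal ones. Notch1f/f libraries of equal number gave -0.13, -0.0244 and 0.191 with WT, and -0.12, 0.0645 and 0.212 with DNMAML. Counts from their blocked fits are given only under the dependence on processing. Unlike numbers reached 0.352 for WT 2 with Notch1f/f 1 and 0.306 for DNMAML 2 with Notch1f/f 1. These libraries were low in Fos, and what the correlation marks was not tested.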

Additional observations from a re-analysis of the deposited data

How the results depend on the processing

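For DNMAML against WT, members called went from 0 to 9 with DESeq2, 12 without a filter, 2 in the 6 libraries compared, 9 with the replicate block in those 6, and 0 to 4 with a library left out. All genes called there went from 1 to 212, 460, 78, 310 and 0 to 94 in the same fits, 0 with limma-voom and 4 with the block in 9 libraries. For Notch1f/f against WT, members called went from 3 to 13 with DESeq2, 6 with library totals only, 13 without a filter, 0 with limma-voom, 1 with the replicate block in 6 libraries and 0 to 6 with a library left out. All genes went from 163 to 999 with DESeq2, 1415 without a filter, 49 with limma-voom, 92 and 279 with the block in 6 and 9 libraries, and 13 to 530 with a library left out. The members' median there, 0.448, ran from 0.357 to 0.544. Between Notch1f/f and DNMAML all genes called went from 4 to 173 with DESeq2, 696 without a filter, 1 in 6 libraries, 8 with the block and 2 to 31 with a library left out. Since r of equal numbers was of mixed sign for Notch1f/f with the other genotypes, counts from its blocked fits are given here only. Above, these fits are named only among the settings in which calls of Ckap2 and Psrc1 were lost. Signs turned for members near 0. With a library left out, log2 differences from WT in DNMAML ran from -0.28 to 0.25 for Plk3, -1.0 to 0.84 for Perp, -0.18 to 0.02 for Rrm2b and -0.33 to 0.05 for Ddb2. Those in Notch1f/f ran from -0.38 to 0.16 for Plk3, -0.04 to 0.25 for Pmaip1 and -8.53 to 0.05 for Perp, which had 0 counts in Notch1f/f 1 and 2, and Gdf15 against DNMAML ran from -0.50 to 1.08. Perp in DNMAML also turned to 0.10 with limma-voom and to 0.03 and 0.42 with the block in 6 and 9 libraries. The cause was not tested. Of the values of the 32 members against WT, and of Perp, Gdf15, Pidd1 and Tnfrsf10b between Notch1f/f and DNMAML, under the alternatives, 1044 kept direction and call, 77 gained and 20 lost a call, and 15 changed sign. Differences of other members between Notch1f/f and DNMAML also changed sign with a library left out. Psrc1, Ckap2 and Gtse1 are limited by WT levels of a few counts.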

Other observations

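Which library of a genotype was lowest was counted, after the values were seen, for the members that lay above WT in every library. In Notch1f/f, 9 of 16 such members were lowest in Notch1f/f 3 (Aen, Bax, Ccng1, Cdkn1a, Eda2r, Ei24, Phlda3, Sesn2 and Zmat3) and 7 in Notch1f/f 1, with 0 in Notch1f/f 2. Of all 32 members 14 were lowest in Notch1f/f 3, 13 in Notch1f/f 1 and 5 in Notch1f/f 2. Over all 19486 genes the shares lowest in Notch1f/f 1, 2 and 3 were 32.6%, 35.1% and 32.3%. Notch1 was at 176 CPM in Notch1f/f 3, 70.8 CPM in Notch1f/f 1 and 29.5 CPM in Notch1f/f 2. In DNMAML, 9 of 18 such members were lowest in DNMAML 3, 8 in DNMAML 2 and 1 in DNMAML 1, beside 31.1%, 36.5% and 32.4% of all genes. Of all 32 members 10, 17 and 5 were lowest in DNMAML 3, 2 and 1. These counts were not tested, and 3 libraries per genotype allow no relation with Notch1 to be read.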
